A study of Mus musculus with 5 samples.

Results

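Ventricles of Celf1 -/- and Celf1 +/+ mice were compared 3 days after birth (PN3) by sequencing of polyadenylated RNA, with 2 libraries of each genotype, which make up 4 of the 5 libraries of the series. The remaining library, from Celf1 +/+ ventricles at PN38, enters only 1 alternative fit and the naming of genes from the study's development list. All libraries came from male mice of a mixed 129v/BL6 strain (spelled 129Sv/BL6 in the study's methods), and blood and atria had been taken off before the ventricles were frozen. The Celf1 -/- mice lack the gene in every cell of the body from conception, so that levels in the heart can follow from its loss in cardiomyocytes, in other cells of the ventricle or in other organs, and these cannot be told apart here. The study calls the libraries of a genotype biological replicates, while the labels name no animals, and p-values measure only the spread between these samples. Levels are given as FPKM (fragments per kilobase of transcript, scaled to the number of mapped fragments), in the order replicate 1, replicate 2 within the knockout or mutant (Celf1 -/-) and the wild-type (Celf1 +/+) pair, and fold changes as the log2 ratio of Celf1 -/- over Celf1 +/+ from the counts, with the standard error (SE) of the fit.

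Celf1 is an RNA-binding protein of the CELF family. It binds GU-rich sequences, regulates alternative splicing in the nucleus, and in the cytoplasm promotes the decay or alters the translation of mRNAs that carry such sequences in the 3′ UTR. In the heart it is abundant around birth and declines as cardiomyocytes leave the cell cycle and move from glycolysis to the oxidation of fatty acids.

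Celf1 itself (chromosome 2 of mm9, plus strand, 90780539 to 90859654) measured 2.61 and 3.03 FPKM in the mutant pair and 58.4 and 57.8 FPKM in the wild-type pair, which separates the libraries as labelled. Its log2 fold change was -4.21 (SE 0.0885, adjusted p = 2.69e-04, edgeR quasi-likelihood test with Benjamini-Hochberg adjustment). Between 122715683 and 139769909 expected counts per PN3 library lay behind the values, and 12381 to 12547 genes reached 1 FPKM. The test covered 12502 genes, those at 1 FPKM or more in each library of at least 1 genotype, over which the median log2 fold change was -0.0007. At a false discovery rate (FDR) of 0.05 it called 6 genes lower (0.048% of the genes tested) and 1 gene higher (0.008%). At FDR 0.1 it called 139 lower (1.11%) and 82 higher (0.656%). On the same counts edgeR's exact test called 425 lower (3.4%) and 382 higher (3.06%) at FDR 0.05, and DESeq2 called 720 lower and 736 higher of the 12259 genes to which it gave an adjusted p. In FPKM, 3787 genes (30.3%) had both mutant values below both wild-type values and 3355 (26.8%) had them above, so a member without overlap between genotypes is common among all genes.

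**Figure D1:**
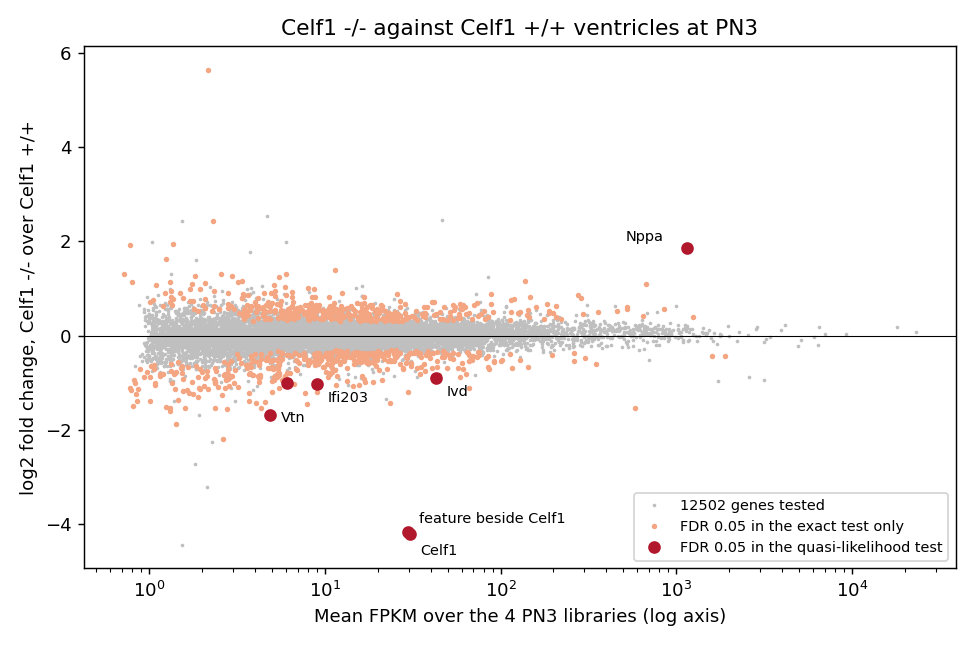
Log2 fold change of Celf1 -/- over Celf1 +/+ ventricles at PN3 for each of the 12502 genes tested (vertical axis) against its mean FPKM over the 4 libraries (horizontal, log axis). Dark red points are the quasi-likelihood calls at FDR 0.05 (6 lower, 1 higher), and orange points passed only in the exact test.

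The genes of the deposited values carry numbers and no names. A gene was named where its FPKM matched exactly those in the study's supplementary expression table, which named 2478 of the 12502 genes. Of these, 918 are on the study's list of genes that differ between the genotypes at PN3, and 906 of the 918 did not overlap between genotypes (454 higher, 452 lower). The other 1560 are on its list for development only, so they are genes that it did not list at PN3. Gene families below hold members of both kinds, and members on neither list have no value here. Genes under 1 FPKM in a library of a genotype passed the filter only through the other genotype, so their direction is not independent of it. Among genes given below, Add2, Synm, Nrg1, Igf2bp1, Bmp10 and Scgb3a2 passed so through Celf1 -/- libraries. Igfbp6, Nr4a2, Ddit4l, Slc2a12, Trem2 and Dbh passed so through Celf1 +/+ libraries. A named member was thus mostly picked for differing or for not differing in these same libraries: the counts for a family describe its members, are not independent evidence of a direction, and no family was tested as a whole. Counts without overlap are to be read beside 30.3% lower and 26.8% higher of all genes tested. Counts at an unadjusted p under 0.05 are to be read beside 11.6% lower and 12.1% higher. For members from the PN3 list, a lack of overlap was nearly fixed in advance by that list. In the sentences that follow, only genes past FDR 0.05 in the quasi-likelihood test are said to have risen or fallen. The plot of family members shows the log2 fold changes of all 34 lists.

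**Figure D2:**
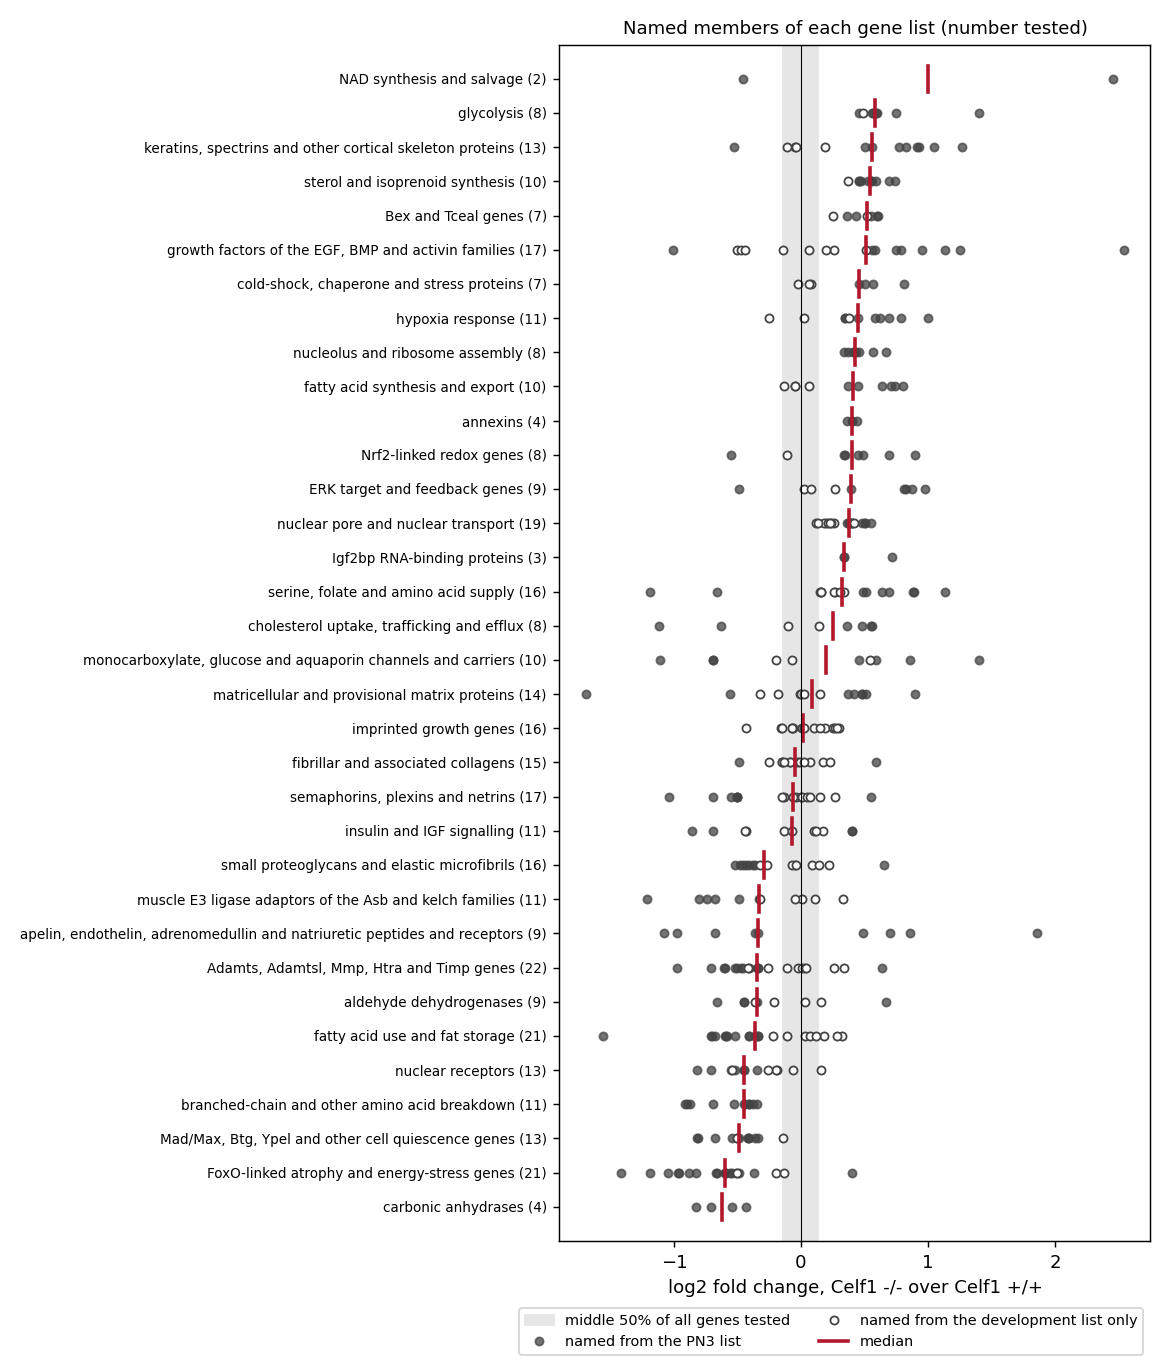
Log2 fold change of each named member (points) in 34 gene lists, with the number of members tested in brackets, the median of each list as a red line and the middle 50% of all 12502 genes tested as a grey band. Filled points were named from the study's PN3 list and open points from its development list only, and the medians run from -0.62 for the carbonic anhydrases to 1.0 for the pair of NAD genes.

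Genes of sterol and isoprenoid synthesis, the pathway from acetyl-CoA to cholesterol and to the prenyl groups of proteins, stood higher in the mutant pair than in the wild-type pair, without overlap, for all 10 of the 21 list members that carry a name, 9 of them through the PN3 list (26.8% of all genes tested stood so, and 454 of the 918 PN3-listed genes). Their median log2 fold change was 0.54, with an SD of 0.193 over the 4 pairs of single libraries. Idi1, the isomerase that makes the second isoprenoid building block, measured 23.3 and 17.8 FPKM in knockouts and 14.3 and 11.5 FPKM in wild types. Farnesyl diphosphate synthase (Fdps) measured 45.4 and 34 FPKM in Celf1 -/- against 31.5 and 26.7 FPKM in Celf1 +/+ libraries. In both of these genes the genotypes did not overlap, and Celf1 -/- replicate 1 was the highest library, as it was for 9 of the 10 genes. The sterol demethylase Cyp51 had a log2 fold change of 0.55 (SE 0.113). Hsd17b7 had the largest, 0.74 (SE 0.259), and was highest in Celf1 -/- replicate 2. Sqle, Sc4mol, Lbr and Lss had log2 fold changes from 0.37 (Lss) to 0.56 (Sc4mol). In edgeR's quasi-likelihood test 0 of the 10 passed FDR 0.05 (adjusted p from 0.114 to 0.202), while all 10 had an unadjusted p under 0.05 (as did 12.1% of all genes tested on the higher and 11.6% on the lower side), 4 passed in the exact test and 8 in DESeq2. Without Celf1 -/- replicate 1 the median log2 fold change was 0.33.

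Genes of cholesterol uptake and efflux went to both sides. Stard4, which carries sterol between membranes, measured 12 and 10.7 FPKM in the mutant pair and 8.4 and 7.93 FPKM in the wild-type pair, and Tmem97, a membrane protein of LDL uptake, measured 25.8 and 24.2 FPKM in knockouts and 18.8 and 15.5 FPKM in wild types, both without overlap. The cholesterol exporter Abca1 lay in the other direction, at 3.06 and 4.96 FPKM in Celf1 -/- against 5.43 and 7.12 FPKM in Celf1 +/+ libraries, and so did the phospholipid transfer protein Pltp, at 2.76 and 4.08 FPKM in the mutant pair and 7.32 and 7.76 FPKM in the wild-type pair. Soat1, which esterifies cholesterol, had a log2 fold change of 0.36 (SE 0.0645). Srebf2 and Mbtps1, a transcription factor of the sterol pathway and a protease that activates it, had log2 fold changes of 0.14 and -0.10 and are named from development only. Of the 8 named genes 0 passed FDR 0.05 in the quasi-likelihood test, with 5 at an unadjusted p under 0.05, against 4 in the exact test (3 higher, 1 lower) and 5 in DESeq2.

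All 8 named genes of glycolysis, out of 22 on the list, were higher in Celf1 -/- hearts without overlap, 7 of them named through the PN3 list. Their median log2 fold change was 0.58 (SD 0.103 over library pairs). Slc16a3, the transporter that exports lactate from glycolytic cells, differed most (chromosome 11 of mm9, 120809794 to 120822182). It measured 18.6 and 14.5 FPKM in knockouts and 6.44 and 6.29 FPKM in wild types, so that both Celf1 -/- libraries stood well above both Celf1 +/+ libraries, a log2 fold change of 1.40 (SE 0.145, adjusted p = 0.0699). Pgam1, phosphoglycerate mutase, measured 134 and 154 FPKM in Celf1 -/- against 93.6 and 79.3 FPKM in Celf1 +/+ libraries. Lactate dehydrogenase A (Ldha), among the most abundant mRNAs of the list, measured 1071 and 938 FPKM in the mutant pair and 693 and 684 FPKM in the wild-type pair. Phosphoglycerate kinase (Pgk1) measured 644 and 597 FPKM in knockouts and 450.4 and 406 FPKM in wild types. These enzymes lie at different steps of the pathway, and in each the Celf1 -/- libraries stood above both others by more than the gap within a genotype. The glucose carrier Slc2a1 had a log2 fold change of 0.59 (SE 0.0923), the phosphofructokinase Pfkp of 0.60 (SE 0.109), the aldolase Aldoc of 0.49 (SE 0.133) and the monocarboxylate carrier Slc16a1 of 0.46 (SE 0.155). In the quasi-likelihood test 0 of the 8 passed FDR 0.05 and 3 passed FDR 0.1 (Slc16a3, Pgam1 and Slc2a1), with all 8 at an unadjusted p under 0.05, 6 past FDR 0.05 in the exact test and all 8 in DESeq2.

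Of 11 named genes on the list of the hypoxia response, 9 were higher without overlap, and the 8 of the PN3 list were all among these. Ak4, a mitochondrial adenylate kinase, measured 11.8 and 11.2 FPKM in Celf1 -/- against 5.45 and 6.19 FPKM in Celf1 +/+ libraries, a log2 fold change of 1.0 (SE 0.0845, adjusted p = 0.0525). Bnip3, a mitophagy receptor, measured 71 and 71.7 FPKM in the mutant pair and 45.4 and 51.2 FPKM in the wild-type pair. The cytokine Mif measured 392 and 327 FPKM in knockouts and 225 and 199 FPKM in wild types. The genotypes stayed apart in all 3 genes, and the Celf1 -/- libraries of Bnip3 differed by less than 1 FPKM. Fam162a had a log2 fold change of 0.62 (SE 0.0816) and Angptl4, an inhibitor of lipoprotein lipase, of 0.69 (SE 0.185). The collagen hydroxylases Plod2 and P4ha1 and the oxidase Ero1l of the endoplasmic reticulum had smaller ones, from 0.35 to 0.45. Hif1a, the oxygen-regulated transcription factor, measured 71.5 and 62.5 FPKM in Celf1 -/- against 49.9 and 53.9 FPKM in Celf1 +/+ libraries, apart without overlap, and is named from development only. Hif3a and Stc1 overlapped between genotypes. The median log2 fold change was 0.45, and 0 of 11 genes passed FDR 0.05 in the quasi-likelihood test, against 5 at FDR 0.1 and 9 at an unadjusted p under 0.05, and against 8 in the exact test and 9 in DESeq2 at FDR 0.05.

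**Figure D3:**
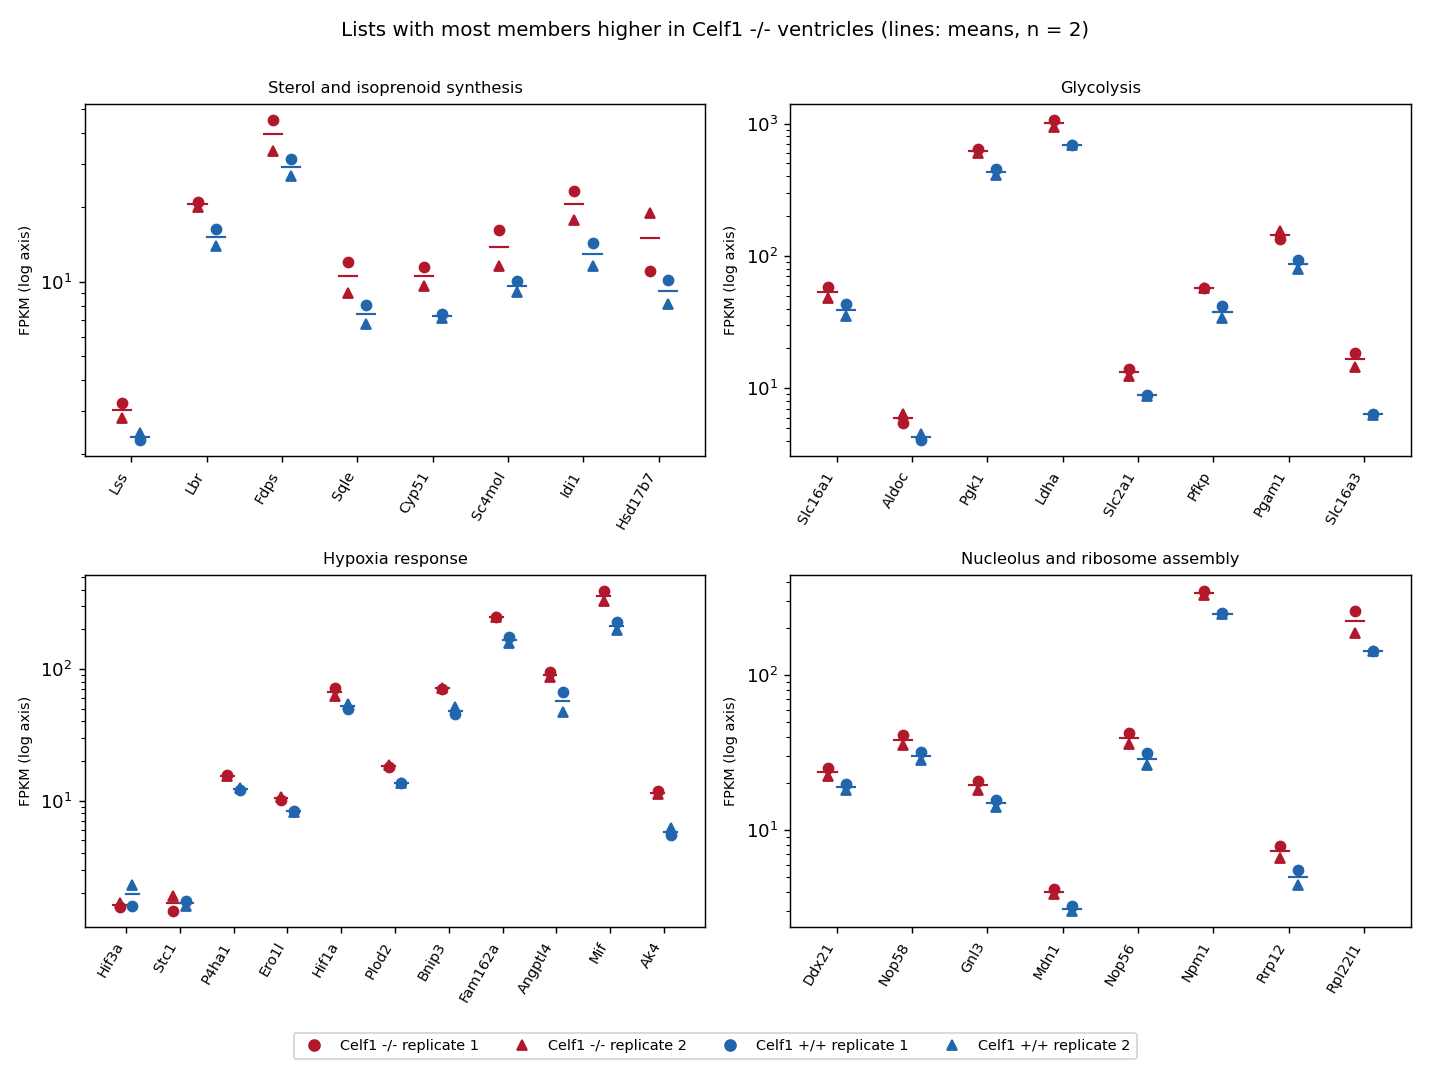
FPKM (log axis) of named members of 4 lists in the 2 Celf1 -/- (red) and 2 Celf1 +/+ (blue) libraries, with circles for replicate 1, triangles for replicate 2 and short lines for the genotype means (n = 2). The sterol genes drawn, all 8 glycolysis genes and all 8 nucleolar genes have both red points above both blue points, as do 9 of the 11 hypoxia genes.

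The promoters of these genes were searched, on both strands, for the core of the hypoxia response element, ACGTG, to show where it lies beside genes that were higher together. The promoters are those of RefSeq on GRCm38.p6, with 250 bases before and 50 after each start. ACGTG was present in 7 of the 8 glycolysis genes, each of which has a promoter in the table, and in 7 of the 8 hypoxia genes that have one, against 28.6% of the 1934 named genes with a promoter and 21.8% of all 27025 genes. Mif, Hif1a, P4ha1, Ero1l, Aldoc and Slc16a1 also hold the core and are not shown. The windows below are 5′ to 3′ on the strand of the gene, with the core in capitals (CACGT where it lies on the other strand). They are shown for examples from both lists, chosen after their values were seen.
Slc16a3 (chr11:120949031-120949053, plus strand): gcagcggtgACGTGcgcggggga
Pgk1 (chrX:106186941-106186963, plus strand): tcgtgcaggACGTGacaaatgga
Pgam1 (chr19:41911748-41911770, plus strand): tccttgcttACGTGcgctccgtg
Ldha (chr7:46845748-46845770, plus strand): ccagcctacACGTGggttcccgc
Slc2a1 (chr4:119108700-119108722, plus strand): ccgccccggACGTGctccccagg
Ak4 (chr4:101419481-101419503, plus strand): actctgcccACGTGcggggaccg
Bnip3 (chr7:138909600-138909622, minus strand): acgcgccgcACGTGccacacgct
Fam162a (chr16:36071629-36071651, minus strand): ctcgtcgcgCACGTcccgcacgc
The core is also part of the E box CACGTG, as in the window of Ldha. A match of 5 bases is a description of the window, and binding was not measured. The lists were written from textbook knowledge of these pathways, so a high share can follow from how their members were chosen, and its cause was not tested. In the sterol list, TCACNCCAC, a form of the sterol regulatory element, was in 0 of the 6 genes with a promoter (1.5% of named and 1.44% of all genes hold it), and CCAAT was in 6 of 6 (46.3% of named and 41.1% of all genes).

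Among genes that supply serine, one-carbon units and amino acids, 13 of 16 named members were higher without overlap and 2 were lower. The PN3 list names 9 of them, 7 on the higher and 2 on the lower side. Psat1, the second enzyme of serine synthesis, measured 35.1 and 31.4 FPKM in the mutant pair and 19.6 and 16.8 FPKM in the wild-type pair, a log2 fold change of 0.89 (SE 0.12, adjusted p = 0.0801). The mitochondrial folate enzyme Mthfd1l measured 4.65 and 4.21 FPKM in knockouts and 2.43 and 2.44 FPKM in wild types, and its partner Mthfd2 measured 10.6 and 9.86 FPKM in Celf1 -/- against 7.42 and 5.41 FPKM in Celf1 +/+ libraries. Psat1 and Mthfd1l were close to 1.8 times as high in Celf1 -/- as in Celf1 +/+ hearts in mean FPKM (ratios of 1.83 and 1.82). The amino acid carriers Slc7a5 and Slc1a5 had log2 fold changes of 0.64 and 0.51, and thymidylate synthase (Tyms) had one of 0.49. Gdf15, a stress-induced cytokine kept on this list, measured 4.87 and 3.86 FPKM in the mutant pair and 2.27 and 1.8 FPKM in the wild-type pair. The lower members were 2 mitochondrial enzymes, the alanine transaminase Gpt2, at 2.65 and 3.46 FPKM in knockouts and 6.7 and 7.17 FPKM in wild types, and the folate dehydrogenase Aldh1l2, at 7.37 and 7.81 FPKM in Celf1 -/- against 10.1 and 14.3 FPKM in Celf1 +/+ libraries. Shmt1, of the cytosolic folate route and named from development only, overlapped between genotypes. The quasi-likelihood test called 0 of the 16 at FDR 0.05 (12 at an unadjusted p under 0.05), and the exact test and DESeq2 called 7 higher and 2 lower each.

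Genes for the breakdown of branched-chain and other amino acids lay on the opposite side. All 11 named members, of 28 listed and all named through the PN3 list, were lower in both Celf1 -/- libraries (30.3% of all genes tested were, and 452 of the 918 PN3-listed genes), with a median log2 fold change of -0.45 (SD 0.0815 over library pairs). Ivd, the isovaleryl-CoA dehydrogenase of leucine breakdown, measured 28.7 and 30.7 FPKM in the mutant pair and 55.5 and 57.2 FPKM in the wild-type pair. Its libraries agreed within 2 FPKM in each genotype, and it fell with a log2 fold change of -0.91 (SE 0.0578, adjusted p = 0.0465), between -0.93 and -0.88 with each library left out in turn. Without Celf1 +/+ replicate 2 its adjusted p was 0.106, and with edgeR's filterByExpr in place of the FPKM filter it was 0.0547. Bckdha, a subunit of the dehydrogenase that commits branched-chain keto acids to breakdown, measured 24.2 and 33.3 FPKM in knockouts and 51.1 and 57.3 FPKM in wild types. Ppm1k, the phosphatase that activates this dehydrogenase, measured 5.66 and 5.03 FPKM in Celf1 -/- against 6.86 and 7.55 FPKM in Celf1 +/+ libraries. The valine enzyme Acad8 measured 15 and 18.9 FPKM in the mutant pair and 22.8 and 24 FPKM in the wild-type pair, also without overlap. Mcee, an epimerase of the route from valine and isoleucine to succinyl-CoA, had a log2 fold change of -0.38. Outside branched-chain amino acids, the monoamine oxidase Maob had a log2 fold change of -0.87, D2hgdh, a mitochondrial hydroxyglutarate dehydrogenase, of -0.69, and the proline enzyme Aldh4a1 the one nearest 0, -0.35. Besides Ivd, 5 members passed FDR 0.1 in the quasi-likelihood test, while 10 of 11 passed FDR 0.05 in the exact test and 11 of 11 in DESeq2. Ivd lies on chromosome 2 (118687690 to 118708645 of mm9), as Celf1 does. The study also reports a splicing change of Ivd at PN3, with less inclusion of an alternative region in Celf1 -/- hearts by RNA-seq and RT-PCR.

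Genes of fatty acid use and fat storage were lower without overlap for 14 of 21 named members and higher for 3, and all 13 members from the PN3 list were lower. Dgat2, which makes triglyceride, measured 24.3 and 24.3 FPKM in knockouts and 36.4 and 38.4 FPKM in wild types. Fitm1, a lipid droplet protein of muscle, measured 67.5 and 62.1 FPKM in Celf1 -/- against 105 and 108 FPKM in Celf1 +/+ libraries. Pdk2, the kinase that restrains pyruvate dehydrogenase, measured 80.9 and 84.6 FPKM in the mutant pair and 113 and 128 FPKM in the wild-type pair. In these 3 genes the Celf1 -/- libraries were close together and below both Celf1 +/+ libraries. Acss3, a mitochondrial acyl-CoA synthetase at low level, had the lowest log2 fold change, -1.56 (SE 0.275). The retinoid receptor Rxrg, the lysophospholipase Pnpla7 and the phosphatidate phosphatase Lpin1 had log2 fold changes of -0.71, -0.68 and -0.59. Among genes of fat oxidation, the isomerase Dci measured 232 and 225 FPKM in knockouts and 279 and 317 FPKM in wild types, while Cpt1a, the gate of mitochondrial import and named from development only, measured 51.4 and 48.9 FPKM in Celf1 -/- against 47.7 and 48.9 FPKM in Celf1 +/+ libraries and had a log2 fold change of 0.07. Members named from development only ran from -0.22 (Ucp3) to 0.32 (Fabp5). Of these, Cpt1a, the uncoupling protein gene Ucp2 and the thioesterase gene Acot1 were higher without overlap, Acot1 at 114 and 98.6 FPKM in the mutant pair and 82.6 and 95.8 FPKM in the wild-type pair. The quasi-likelihood test called 0 of 21 at FDR 0.05 and 5 lower at FDR 0.1, with 15 at an unadjusted p under 0.05, and the exact test called 9 lower and DESeq2 13 lower.

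Fatty acid synthesis and export differed from fat use in direction among PN3-listed members, of which all 6 were higher. Elovl6, an elongase, measured 1.89 and 2.03 FPKM in knockouts and 1.27 and 1.01 FPKM in wild types. Hsd17b12, a reductase of fatty acid elongation, measured 35.2 and 31.3 FPKM in Celf1 -/- against 22.2 and 18.2 FPKM in Celf1 +/+ libraries. The malic enzyme Me1, a source of NADPH, measured 30.1 and 30.1 FPKM in the mutant pair and 22.6 and 22 FPKM in the wild-type pair, and the replicates of each genotype differed by less than 1 FPKM. Agpat5 and Mttp, of phosphatidate synthesis and lipoprotein assembly, had log2 fold changes of 0.64 and 0.71. Fasn, Scd2, Fads2 and Agpat9, named from development only, stayed between -0.13 and 0.06. Of the 10 named genes 0 passed FDR 0.05 in the quasi-likelihood test (6 at an unadjusted p under 0.05), and both the exact test and DESeq2 called 6.

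Genes linked to FoxO transcription factors, which act in fasted and atrophying muscle, were lower without overlap for 17 of 21 named members, and 17 of the 18 from the PN3 list were lower. Their median log2 fold change was -0.60, with an SD of 0.262 over library pairs. Trim63, a ubiquitin ligase of muscle atrophy, measured 113 and 107 FPKM in knockouts and 161 and 189 FPKM in wild types. The other atrophy ligase, Fbxo32, measured 8.88 and 10.7 FPKM in Celf1 -/- against 11.9 and 16.3 FPKM in Celf1 +/+ libraries. Txnip, an arrestin that limits glucose uptake, measured 254 and 299.7 FPKM in the mutant pair and 394 and 455 FPKM in the wild-type pair. Within both genotypes replicate 2 was the higher library for Fbxo32 and Txnip, and the genotypes still did not overlap. The arrestin Arrdc4 measured 4.36 and 6.57 FPKM in knockouts and 10.9 and 14.2 FPKM in wild types. Bmf and Bcl2l11, which encode death-promoting proteins of the BH3-only group, had log2 fold changes of -1.42 (SE 0.261) and -0.96 (SE 0.128). Pik3ip1, an inhibitor of PI3 kinase, measured 7.77 and 12.4 FPKM in Celf1 -/- against 16.2 and 26.1 FPKM in Celf1 +/+ libraries, and the kinase of damaged mitochondria Pink1 measured 60.9 and 69.2 FPKM in the mutant pair and 99.9 and 110.4 FPKM in the wild-type pair. The other lower members included Ddit4l, an inhibitor of mTOR, at 0.65 and 1.11 FPKM in knockouts and 1.16 and 2.33 FPKM in wild types, and Eef2k, the kinase that slows translation elongation, with a log2 fold change of -0.37, while Ccng2, Sesn3 and Irs2, named from development only, overlapped. The insulin receptor (Insr), itself a FoxO-linked gene, was the PN3-listed member on the other side, at 27.6 and 30.01 FPKM in Celf1 -/- against 20.5 and 20.3 FPKM in Celf1 +/+ libraries. Of the 21 genes 0 passed FDR 0.05 in the quasi-likelihood test, against 3 lower and 1 higher at FDR 0.1 and 17 at an unadjusted p under 0.05, while 13 lower and 1 higher passed in the exact test and 15 lower and 1 higher in DESeq2. The FoxO core GTAAACA was in 5 of the 16 genes with a RefSeq promoter (Trim63, Txnip, Sesn1, Bcl2l11 and Klf9), against 4.19% of named and 4.05% of all genes. Members were put on this list for a known link to FoxO factors, so this share can follow from that choice, and binding was not measured. For Txnip and Trim63 the windows are given below, with the core in capitals (TGTTTAC on the other strand).
Txnip (chr3:96557827-96557851, plus strand): ggaggcctgGTAAACAagggccaag
Trim63 (chr4:134314917-134314941, plus strand): gtctgttctTGTTTACgacccccac

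Genes tied to cell quiescence, among them the Max partners that oppose Myc, the Btg antiproliferative proteins and the Ypel family, were lower without overlap for 11 of 13 named members, the 11 that came from the PN3 list. Mxd4 measured 26.6 and 35 FPKM in the mutant pair and 45.4 and 54.9 FPKM in the wild-type pair and Ypel3 measured 20.8 and 28.9 FPKM in knockouts and 39.4 and 49.2 FPKM in wild types. Hbp1, a repressor of cell cycle genes, measured 39.5 and 48.9 FPKM in Celf1 -/- against 55.9 and 69.1 FPKM in Celf1 +/+ libraries. In all 13 genes replicate 2 was higher than replicate 1 within both genotypes. Ypel1, Ypel2 and Ypel5 had log2 fold changes of -0.82, -0.42 and -0.50, Mxi1 one of -0.42, and Btg2 one of -0.36, while Btg1 and Ccng2 overlapped between genotypes. Pnrc1 and Ing4 had log2 fold changes of -0.41 and -0.34. The quasi-likelihood test called 0 at FDR 0.05 (11 at an unadjusted p under 0.05), the exact test 8 and DESeq2 9. Without Celf1 +/+ replicate 2, the library with the highest levels, their median log2 fold change was -0.32.

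**Figure D4:**
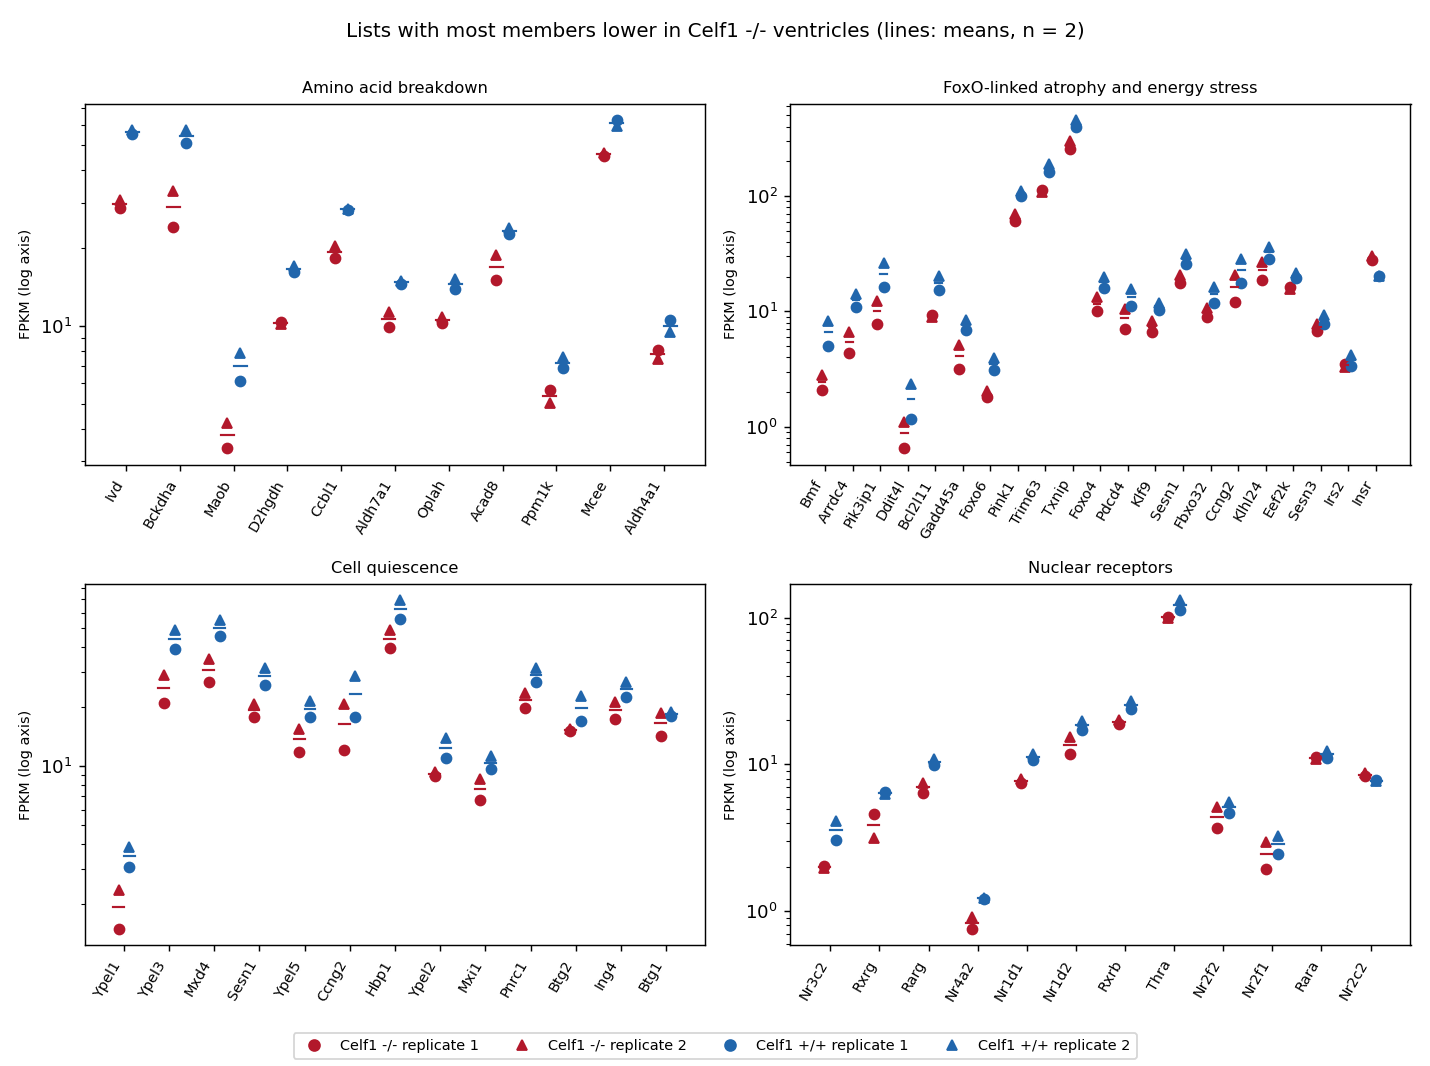
FPKM (log axis) of named members of 4 lists in the 2 Celf1 -/- (red) and 2 Celf1 +/+ (blue) libraries, with circles for replicate 1, triangles for replicate 2 and short lines for the genotype means (n = 2). Both red points lie below both blue points for all 11 genes of amino acid breakdown, 17 of 21 FoxO-linked genes, 11 of 13 quiescence genes and most of the nuclear receptors drawn, and Insr lies the other way.

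Nucleolar and ribosome assembly genes were higher without overlap for all 8 named members of 18, each from the PN3 list. Npm1, an abundant nucleolar chaperone, measured 351 and 326 FPKM in the mutant pair and 251 and 247 FPKM in the wild-type pair. Nop56 and Nop58, core proteins of the box C/D particles that modify ribosomal RNA, measured 42.1 and 36.1 FPKM against 31.4 and 26.4 FPKM and 41.1 and 35.2 FPKM against 31.8 and 28.3 FPKM, with the Celf1 -/- libraries given first. Gnl3, a nucleolar GTPase of proliferating cells, and Rrp12 had log2 fold changes of 0.41 and 0.57. Rpl22l1, a paralog of a ribosomal protein, had the largest, 0.67 (SE 0.175). The helicase Ddx21 and the assembly ATPase Mdn1 had log2 fold changes of 0.34 and 0.42. In every member replicate 1 exceeded replicate 2 within both genotypes. Of the 8 genes 0 passed FDR 0.05 in the quasi-likelihood test, all 8 had an unadjusted p under 0.05, and 5 passed in the exact test and 7 in DESeq2.

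Nuclear pore and transport genes were higher without overlap in all 19 named members, 9 of which are not on the PN3 list, with a median log2 fold change of 0.38. The importin Kpna2 measured 136 and 164 FPKM in knockouts and 119 and 95.8 FPKM in wild types, and the main exportin Xpo1 measured 34.8 and 31.2 FPKM in Celf1 -/- against 24.9 and 23.1 FPKM in Celf1 +/+ libraries. Lamin B1 (Lmnb1) measured 65.7 and 62.1 FPKM in the mutant pair and 48.7 and 39.8 FPKM in the wild-type pair. Tmem48, a pore membrane protein, had a log2 fold change of 0.50, and the scaffold nucleoporins Nup93 and Nup205 had ones of 0.38 and 0.38. Members named from development only had log2 fold changes from 0.12 (Pom121) to 0.42 (Rangap1). The median was 0.25 without Celf1 -/- replicate 1 and also 0.25 without Celf1 +/+ replicate 2. The quasi-likelihood test called 0 at FDR 0.05 (14 at an unadjusted p under 0.05), the exact test 6 and DESeq2 11.

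The Igf2bp proteins, RNA-binding proteins of fetal tissue, were higher without overlap in all 3 genes. Igf2bp1 was near the filter of 1 FPKM, at 1.31 and 1.2 FPKM in knockouts and 0.81 and 0.74 FPKM in wild types. Igf2bp2 and Igf2bp3 measured 11.6 and 12.9 FPKM against 9.3 and 10.2 FPKM and 8.75 and 9.48 FPKM against 7.48 and 6.97 FPKM, with Celf1 -/- first. The X-linked Bex and Tceal genes were higher in all 7 named members. Bex1 measured 79.2 and 70.5 FPKM in Celf1 -/- against 52.8 and 47.3 FPKM in Celf1 +/+ libraries, Bex4 measured 49.4 and 42 FPKM in the mutant pair and 27.3 and 33.6 FPKM in the wild-type pair, and Ngfrap1 (Bex3) had a log2 fold change of 0.43. Among the Tceal genes, which are related to a transcription elongation factor, Tceal7 measured 19 and 19.3 FPKM in knockouts and 14.9 and 11.5 FPKM in wild types, and Tceal5, Tceal8 and Wbp5 (Tceal9) had log2 fold changes of 0.52, 0.25 and 0.36. All 4 named annexins, which are calcium-dependent membrane-binding proteins, were higher, from a log2 fold change of 0.36 (Anxa4) to 0.44 (Anxa1). Anxa2 measured 240.4 and 225 FPKM in Celf1 -/- against 184 and 174 FPKM in Celf1 +/+ libraries. Anxa5 measured 169.9 and 158 FPKM in the mutant pair and 122 and 131 FPKM in the wild-type pair. Among chaperones, Hsp90aa1, the inducible form of Hsp90, measured 186 and 187 FPKM in knockouts and 115 and 99.1 FPKM in wild types, and the cold-inducible RNA-binding protein Rbm3 measured 427 and 406 FPKM in Celf1 -/- against 315 and 283 FPKM in Celf1 +/+ libraries. Its relative Cirbp, named from development only, overlapped between genotypes. Fkbp5, a cochaperone that glucocorticoids induce, measured 10.3 and 8.87 FPKM in the mutant pair and 7.0 and 6.1 FPKM in the wild-type pair, and the small heat shock protein Hspb8 measured 64.3 and 69.4 FPKM in knockouts and 54.8 and 43.7 FPKM in wild types. The collagen chaperone Fkbp10 and Hspa2 overlapped as Cirbp did. In the quasi-likelihood test 0 of the genes in these 4 lists passed FDR 0.05, and the exact test called 2 of 3 Igf2bp genes, 4 of 7 Bex and Tceal genes, 4 of 4 annexins and 4 of 7 chaperone and cold-shock genes, DESeq2 3, 6, 4 and 4, and an unadjusted p under 0.05 was reached by 3, 7, 4 and 4.

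The 3′ UTRs of the named genes, as annotated by GENCODE vM1 on mm9 and taken at their longest per gene, were searched for TGTTTGTTTGT, a GU-rich sequence of the kind that Celf1 binds. Among PN3-listed genes without overlap, it occurred in 20 of 447 that were higher (4.47%, median UTR length 1218 bases) and in 6 of 436 that were lower (1.38%, median length 1224). Of all 19641 genes with a UTR, 593 held it (3.02%, median length 913). Genes named from development only held it in 4.3% (64 of 1490). The shorter TGTTTGT, which the longer sequence contains, occurred 0.338 times per kilobase in the higher set, 0.252 in the lower set and 0.292 in all genes. These shares were not tested, since the 2 sets were picked from these libraries, and a match does not show binding. To show its surroundings, a window with the sequence in capitals and its mm9 position follows for 6 PN3-listed list members, higher (Agpat5, Ranbp6, Slc16a1, Tyms) or lower (Ecm2, Ppm1k) in Celf1 -/- hearts. Fbn2, a higher gene with 1 match, and list members named from development only are not shown.
Agpat5 (chr8:18884727-18884755, plus strand): tcatttctaTGTTTGTTTGTttgttgttg
Ranbp6 (chr19:29883070-29883098, minus strand): gttttttttTGTTTGTTTGTttgttttgt
Slc16a1 (chr3:104459875-104459903, plus strand): ttttcttttTGTTTGTTTGTtttgtttta
Tyms (chr5:30385468-30385496, minus strand): ggtttttttTGTTTGTTTGTttgttttgt
Ecm2 (chr13:49626823-49626851, plus strand): attgtttttTGTTTGTTTGTtttctgaga
Ppm1k (chr6:57458290-57458318, minus strand): aaaacaacgTGTTTGTTTGTttgtttgtt
Counting matches that overlap, Ppm1k, a lower gene, holds 4, and the other genes shown hold 1 or 2.

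Growth factors and their targets were followed next. Genes that ERK signalling induces were higher without overlap for 6 of 9 named members. The Ets factors Etv5 and Etv4 measured 8.51 and 7.91 FPKM against 5.02 and 4.49 FPKM and 4.74 and 4.25 FPKM against 2.73 and 2.22 FPKM, with the Celf1 -/- libraries first. Dusp4, a phosphatase that switches ERK off, measured 2.59 and 2.57 FPKM in Celf1 -/- against 1.51 and 1.14 FPKM in Celf1 +/+ libraries. Phlda1 and Spry4 had log2 fold changes of 0.83 and 0.39. The immediate early gene Egr1, also on the PN3 list, went the other way with overlap, at 14.3 and 12 FPKM in the mutant pair and 13.8 and 23.8 FPKM in the wild-type pair. Etv1 and Spry2, named from development only, overlapped as well. Of the 9 genes 0 passed FDR 0.05 in the quasi-likelihood test and 1 (Etv5) passed FDR 0.1, with 5 at an unadjusted p under 0.05 and 5 called by both the exact test and DESeq2 at FDR 0.05.

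Of 17 named genes on the list of EGF, BMP and activin growth factors, their receptors and some antagonists, 11 were higher and 5 lower without overlap (26.8% and 30.3% of all genes tested were). Inhba, the subunit of activin A, measured 4.91 and 5.6 FPKM in knockouts and 3.34 and 2.83 FPKM in wild types, and Fstl3, which binds and blocks activin, measured 11.3 and 10.6 FPKM in Celf1 -/- against 7.28 and 7.79 FPKM in Celf1 +/+ libraries. Neuregulin 1 (Nrg1), a growth signal from endothelium to cardiomyocytes, measured 1.32 and 2.11 FPKM in the mutant pair and 0.90 and 0.97 FPKM in the wild-type pair. Bmp7 measured 22 and 16.9 FPKM in knockouts and 14.1 and 12.3 FPKM in wild types. Ligand and blocker of activin were thus both higher without overlap, and Nrg1 was near 1 FPKM in Celf1 +/+ hearts. Sost, an antagonist of Wnt signalling, measured 9.0 and 6.29 FPKM in Celf1 -/- against 2.66 and 3.89 FPKM in Celf1 +/+ libraries, a log2 fold change of 1.25 (SE 0.256). Egf was lower, at 1.51 and 1.73 FPKM in the mutant pair and 2.67 and 3.57 FPKM in the wild-type pair. Lower without overlap were also Bmp5, Inha and Gdf11, with log2 fold changes of -0.50, -0.47 and -0.44, all named from development only. Bmp10, a ligand of atrial and trabecular muscle, measured 3.55 and 12.4 FPKM in knockouts and 0.19 and 2.61 FPKM in wild types, and with 0.19 FPKM in Celf1 +/+ replicate 1 its log2 fold change of 2.54 has an SE of 1.14. The receptors Erbb2 and Erbb4, named from development only, had log2 fold changes of -0.14 and 0.20. The quasi-likelihood test called 0 of 17 at FDR 0.05 (11 at an unadjusted p under 0.05), the exact test 7 higher and 1 lower, and DESeq2 7 higher and 3 lower.

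Peptides that act on vessels and heart muscle were higher and their receptors or processing enzymes lower, for all 9 named genes without overlap and all from the PN3 list. Nppa, the atrial natriuretic peptide, measured 1857 and 1763 FPKM in Celf1 -/- against 559 and 453 FPKM in Celf1 +/+ libraries, and it rose with a log2 fold change of 1.86 (SE 0.132, adjusted p = 0.0465). Nppb, the related peptide of ventricular load, measured 384 and 320.5 FPKM in the mutant pair and 241 and 152 FPKM in the wild-type pair. Endothelin 1 (Edn1), a vasoconstrictor, measured 6.5 and 5.76 FPKM in knockouts and 3.98 and 3.68 FPKM in wild types, and apelin (Apln) measured 21.5 and 16.5 FPKM in Celf1 -/- against 16 and 11.4 FPKM in Celf1 +/+ libraries. The apelin receptor (Aplnr), an endothelial gene, lay lower at 28 and 49.2 FPKM in the mutant pair and 61.5 and 63.2 FPKM in the wild-type pair. Ramp1 and Ramp2, which pair with the receptors for calcitonin gene-related peptide and adrenomedullin, had log2 fold changes of -0.98 and -0.34. The convertase Furin had one of -0.36. Pcsk6, a proprotein convertase, measured 8.27 and 10.2 FPKM in knockouts and 19.9 and 19.7 FPKM in wild types, a log2 fold change of -1.08 (SE 0.0991, adjusted p = 0.0532). The adjusted p of Nppa was 0.0547 with filterByExpr and 0.0523 in a bias-corrected quasi-likelihood fit, chosen after seeing the data. Nppa was the 1 gene of the list past FDR 0.05 in the quasi-likelihood test, the exact test called 3 higher and 3 lower, and DESeq2 2 higher and 3 lower. Of 11 named atrial markers, 2 (Nppa and Bmp10) did not overlap between genotypes. Myl7 measured 416 and 665 FPKM in Celf1 -/- against 181 and 539 FPKM in Celf1 +/+ libraries, and Sln measured 55 and 132 FPKM in the mutant pair and 17.7 and 85.3 FPKM in the wild-type pair. Both overlapped and were lowest in Celf1 +/+ replicate 1, and the part of atrial tissue in the level of Nppa was not tested.

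Insulin and IGF signalling held members on both sides. Igf1r measured 12 and 11.7 FPKM in knockouts and 9.04 and 9.23 FPKM in wild types, and Insr is given above. Grb14, an inhibitor of the insulin receptor, measured 43 and 43.6 FPKM in Celf1 -/- against 64.6 and 77.6 FPKM in Celf1 +/+ libraries. The binding protein Igfbp6 measured 0.82 and 0.80 FPKM in the mutant pair and 1.4 and 1.6 FPKM in the wild-type pair, while Igfbp5 and Igfbp2 overlapped. The ligands Igf1 and Igf2 overlapped between genotypes, Igf2 at 388 and 437 FPKM in knockouts and 359 and 417 FPKM in wild types. Of 16 named imprinted growth genes, named from development only, 12 overlapped between genotypes, 3 were higher and 1 was lower, with a median log2 fold change of 0.01. H19 measured 653 and 786 FPKM in Celf1 -/- against 648 and 803 FPKM in Celf1 +/+ libraries. The lower gene was Igf2r, which clears IGF2, at 73.2 and 81.4 FPKM in the mutant pair and 84.1 and 128 FPKM in the wild-type pair, and the higher ones were Peg12, Gatm and Igf2as, with log2 fold changes from 0.25 to 0.30. Igf2as is antisense to Igf2, and without strand the reads of the pair cannot be told apart. In the quasi-likelihood test 0 of 11 signalling genes and 0 of 16 imprinted genes passed FDR 0.05, with 4 and 1 at an unadjusted p under 0.05, 4 and 0 past FDR 0.05 in the exact test and 3 and 0 in DESeq2.

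Nuclear receptors were lower without overlap for 9 of 13 named members, and all 7 from the PN3 list were lower. The mineralocorticoid receptor Nr3c2 measured 2.04 and 1.96 FPKM in knockouts and 3.08 and 4.1 FPKM in wild types. The retinoic acid receptor Rarg measured 6.42 and 7.51 FPKM in Celf1 -/- against 9.88 and 10.9 FPKM in Celf1 +/+ libraries, and its partner Rxrb measured 18.9 and 20.1 FPKM in the mutant pair and 23.8 and 26.9 FPKM in the wild-type pair. Rxrg, the retinoid X receptor of muscle, measured 4.6 and 3.15 FPKM in knockouts and 6.5 and 6.26 FPKM in wild types. The clock repressors Nr1d1 and Nr1d2 had log2 fold changes of -0.52 and -0.45. Nr4a2 was at 0.76 and 0.91 FPKM in Celf1 -/- against 1.21 and 1.24 FPKM in Celf1 +/+ libraries, and Nr2c2 was the higher member, with a log2 fold change of 0.16, while Nr2f1, Nr2f2 and Rara overlapped. Thra, a thyroid hormone receptor named from development only, measured 100.9 and 99.7 FPKM in the mutant pair and 113 and 131 FPKM in the wild-type pair, apart without overlap, a log2 fold change of -0.26. The quasi-likelihood test called 0 at FDR 0.05 and 2 at FDR 0.1 (Rarg and Nr1d1), with 10 at an unadjusted p under 0.05, the exact test 6 and DESeq2 8.

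Small proteoglycans and microfibril proteins of the matrix were lower without overlap for 10 of 16 named members. Decorin (Dcn) measured 247 and 254 FPKM in knockouts and 331 and 378 FPKM in wild types, lumican (Lum) measured 71.7 and 71.1 FPKM in Celf1 -/- against 88.2 and 107 FPKM in Celf1 +/+ libraries, and the microfibril protein Mfap4 measured 55 and 56.4 FPKM in the mutant pair and 71.8 and 90.2 FPKM in the wild-type pair. Fibrillin 2 (Fbn2), the fibrillin of fetal tissue, was the PN3-listed member on the other side, at 25.1 and 25.9 FPKM in knockouts and 16.4 and 16.4 FPKM in wild types, with a log2 fold change of 0.65 (SE 0.0622, adjusted p = 0.0563). Fibrillin 1 (Fbn1) had one of 0.09. Elastin (Eln) and Fbln5 overlapped, Eln at 685 and 553 FPKM in Celf1 -/- against 442 and 643 FPKM in Celf1 +/+ libraries. Of 15 named collagens 9 overlapped between genotypes, and Col1a1 measured 259.7 and 226 FPKM in the mutant pair and 251 and 295 FPKM in the wild-type pair. Col12a1, a collagen at fibril surfaces, was higher at 9.25 and 6.38 FPKM in knockouts and 5.08 and 6.03 FPKM in wild types, and Col6a6 was lower at 6.0 and 6.47 FPKM in Celf1 -/- against 7.94 and 9.88 FPKM in Celf1 +/+ libraries. Col3a1 and Col6a2 were lower without overlap, with log2 fold changes of -0.25 and -0.15, and Col27a1 was higher, with one of 0.23. In the quasi-likelihood test 0 of these 31 genes passed FDR 0.05, with 10 of the proteoglycan and microfibril list and 3 collagens at an unadjusted p under 0.05, while the exact test called 8 and 1 and DESeq2 9 and 2.

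Matricellular proteins, which modulate how cells attach to the matrix, held 7 higher and 4 lower members without overlap among 14 named (26.8% and 30.3% of all genes tested were so). Vitronectin (Vtn), a plasma and matrix protein, measured 2.28 and 2.28 FPKM in the mutant pair and 7.53 and 7.37 FPKM in the wild-type pair, and it fell with a log2 fold change of -1.69 (SE 0.114, adjusted p = 0.0465). The adjusted p of Vtn was 0.107 without Celf1 +/+ replicate 2 and 0.0547 with filterByExpr. Thbs4, a thrombospondin of stressed heart, measured 17.1 and 15.2 FPKM in knockouts and 8.9 and 8.67 FPKM in wild types. Tenascin C (Tnc) measured 13.6 and 14.9 FPKM in Celf1 -/- against 10.2 and 11.3 FPKM in Celf1 +/+ libraries, and versican (Vcan) measured 25.5 and 23.4 FPKM in the mutant pair and 18.8 and 20.1 FPKM in the wild-type pair. Both belong to the provisional matrix of developing and injured tissue, and both were higher without overlap. Smoc2 was lower, at 13.5 and 12.2 FPKM in knockouts and 18.7 and 19.9 FPKM in wild types. The hyaluronan receptor Cd44, Spon1 and the hemicentin Hmcn1 had log2 fold changes of 0.48, 0.48 and 0.51, and Spon2 and Thbs2, lower and named from development only, had ones of -0.32 and -0.18. Postn, of activated fibroblasts and named from development only, overlapped at 466 and 499 FPKM in Celf1 -/- against 466 and 519 FPKM in Celf1 +/+ libraries. The exact test called 6 higher and 2 lower, and the quasi-likelihood test called Vtn. Among proteases and inhibitors of the matrix, 14 of 22 named members were lower without overlap and 2 were higher. Htra3 measured 12.6 and 12.5 FPKM in the mutant pair and 21.8 and 28.4 FPKM in the wild-type pair, the gelatinase Mmp2 had a log2 fold change of -0.34, and the inhibitor Timp4 of -0.71. Mmp11 measured 7.62 and 8.68 FPKM in knockouts and 10.9 and 13.9 FPKM in wild types, and Adamts17 had a log2 fold change of -0.60. The higher members were Adamtsl5, at 24.1 and 19.6 FPKM in Celf1 -/- against 16.8 and 11.4 FPKM in Celf1 +/+ libraries, and Adamts14, with a log2 fold change of 0.26. In that list 0 passed FDR 0.05 in the quasi-likelihood test (14 at an unadjusted p under 0.05), 4 in the exact test and 10 in DESeq2.

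Smaller families followed. All 4 named carbonic anhydrases had negative log2 fold changes, and 3 did not overlap. Car14, a membrane-bound form, measured 64.5 and 57.1 FPKM in the mutant pair and 74.9 and 83.2 FPKM in the wild-type pair, and the endothelial Car4 measured 12.8 and 17.9 FPKM in knockouts and 21.1 and 24.1 FPKM in wild types. Car7 measured 1.71 and 2.07 FPKM in Celf1 -/- against 3.51 and 3.42 FPKM in Celf1 +/+ libraries, and Car8 overlapped. Muscle adaptors of ubiquitin ligases were lower without overlap for 8 of 11 members, with Asb15 at 2.23 and 2.2 FPKM in the mutant pair and 4.33 and 6.09 FPKM in the wild-type pair and Asb14 at 3.82 and 4.93 FPKM in knockouts and 6.65 and 8.86 FPKM in wild types. Asb13 and Klhl38 had log2 fold changes of -0.68 and -0.74, while Asb4 and Klhl13 were higher, with ones of 0.33 and 0.11. Among aldehyde dehydrogenases, Aldh2 measured 29.6 and 29.3 FPKM in Celf1 -/- against 39.1 and 42.5 FPKM in Celf1 +/+ libraries. Aldh7a1 and the mitochondrial Aldh1b1 had log2 fold changes of -0.45 and -0.36, and Aldh1a2, of retinoic acid synthesis, of -0.21. Aldh9a1, of carnitine synthesis, was on the other side at 35.3 and 34.6 FPKM in the mutant pair and 21.9 and 22.7 FPKM in the wild-type pair, with a log2 fold change of 0.67 (SE 0.0607, adjusted p = 0.0532). The water channels Aqp1 and Aqp7 had log2 fold changes of -0.69 and -0.69, and the monocarboxylate carrier Slc16a6 of 0.86. The glucose carrier Slc2a12 measured 0.77 and 1.64 FPKM in knockouts and 2.64 and 2.59 FPKM in wild types. Of 17 named axon guidance genes 7 were lower and 3 higher without overlap (30.3% and 26.8% of all genes tested were), with a median log2 fold change of -0.06. Rgma was the lowest by fold, at 8.11 and 6.97 FPKM in Celf1 -/- against 14.5 and 16.7 FPKM in Celf1 +/+ libraries. The plexin Plxnb1 and the related Plxdc1 had log2 fold changes of -0.55 and -0.69, and the higher genes were Sema3b, Unc5b and Sema3a, with ones of 0.55, 0.27 and 0.15. In these 5 lists the quasi-likelihood test called 0 genes at FDR 0.05, with 3, 7, 7, 8 and 8 at an unadjusted p under 0.05 in the order given (11.6% of all genes tested on the lower and 12.1% on the higher side). In the same order the exact test called 3, 3, 4, 6 and 4 and DESeq2 3, 5, 6, 8 and 6.

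Redox genes that Nrf2 controls were higher without overlap for 6 of 8 named members. The quinone reductase Nqo1 measured 15.7 and 15.6 FPKM in the mutant pair and 11.2 and 11.4 FPKM in the wild-type pair and glutathione reductase (Gsr) measured 20.2 and 17.4 FPKM in knockouts and 13 and 10.6 FPKM in wild types, while the extracellular superoxide dismutase Sod3 was lower at 4.06 and 3.88 FPKM in Celf1 -/- against 5.84 and 5.94 FPKM in Celf1 +/+ libraries. Txnrd1 and Prdx4, of the thioredoxin and peroxiredoxin systems, had log2 fold changes of 0.34 and 0.35, and the related factor Nfe2l3 measured 1.7 and 2.13 FPKM in the mutant pair and 1.15 and 1.0 FPKM in the wild-type pair. Of the NAD genes, Itgb1bp3, a nicotinamide riboside kinase of muscle also known as Nmrk2, measured 124 and 33.1 FPKM in knockouts and 22.5 and 6.38 FPKM in wild types. Its replicates differed more within a genotype than the genotypes did between the nearest libraries, and its log2 fold change of 2.46 has an SE of 0.846. Nampt, of the main salvage route, measured 10.1 and 8.83 FPKM in Celf1 -/- against 11.6 and 14.9 FPKM in Celf1 +/+ libraries. The median of this pair of genes ran from 0.29 (without Celf1 -/- replicate 1) to 1.52 (without Celf1 +/+ replicate 1) over libraries left out. Among keratins and proteins of the cell cortex, 9 of 13 were higher without overlap. Krt18 measured 9.32 and 12.2 FPKM in the mutant pair and 5.68 and 6.64 FPKM in the wild-type pair, and its partner Krt8 measured 2.6 and 5.81 FPKM in knockouts and 1.59 and 1.92 FPKM in wild types. The capping protein Capza1 measured 69.3 and 72.9 FPKM in Celf1 -/- against 49.4 and 48.1 FPKM in Celf1 +/+ libraries, and the intermediate filament protein synemin (Synm) measured 1.73 and 1.71 FPKM in the mutant pair and 1.08 and 0.95 FPKM in the wild-type pair. The spectrin partner Add2 measured 1.68 and 1.53 FPKM in knockouts and 0.96 and 0.76 FPKM in wild types. Synm and Add2 passed the filter only through the Celf1 -/- libraries. The lower members were Epb4.1l3, at 11.1 and 7.83 FPKM in Celf1 -/- against 15.2 and 12.5 FPKM in Celf1 +/+ libraries, with Ezr and Add3 nearer 0. In these 3 lists 0 genes passed FDR 0.05 in the quasi-likelihood test, with 7, 2 and 9 at an unadjusted p under 0.05, and the exact test called 7, 0 and 6 and DESeq2 7, 1 and 7.

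Markers of the cell types that a ventricle holds were compared between the libraries as well, and in bulk tissue fewer cells of a type and less RNA per cell cannot be told apart. Erythroid markers summed to 2314 and 4927 FPKM in Celf1 -/- and to 7513 and 7246 FPKM in Celf1 +/+ hearts, over 8 named of 16. The beta globin gene Hbb-b1 measured 221 and 369.5 FPKM in the mutant pair and 894 and 846 FPKM in the wild-type pair. Globin genes are near-identical copies between which RSEM can split fragments, so single copies are uncertain. Alas2, the first enzyme of heme synthesis in red cells, measured 9.77 and 21.5 FPKM in knockouts and 27.8 and 26.8 FPKM in wild types. Spna1, the erythroid spectrin, went the other way, at 4.46 and 5.71 FPKM in Celf1 -/- against 3.52 and 1.85 FPKM in Celf1 +/+ libraries. These sums differed about 2-fold between the Celf1 -/- libraries, although blood had been removed from the hearts.

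All 3 named macrophage markers, of 10 listed and each named through the PN3 list, were lower without overlap (30.3% of all genes tested were). Cd68 measured 2.38 and 3.19 FPKM in the mutant pair and 4.71 and 5.39 FPKM in the wild-type pair. Trem2 measured 0.89 and 1.02 FPKM in knockouts and 2.24 and 2.12 FPKM in wild types, and Ms4a7 had a log2 fold change of -0.84. Endothelial markers were lower without overlap for 8 of 11 named (30.3% of all genes tested were), and the PN3 list names 10 of the 11. Ly6c1 measured 43.1 and 48.8 FPKM in Celf1 -/- against 73.8 and 78.3 FPKM in Celf1 +/+ libraries. Eng and Vwf were higher, Vwf at 11.8 and 14.6 FPKM in the mutant pair and 8.63 and 9.93 FPKM in the wild-type pair. Fibroblast markers were lower without overlap for 9 of 13 named (30.3% of all genes tested were), among them all 8 from the PN3 list. These 9 include Dcn, Lum, Mfap5 and Htra3 of the matrix lists, and the part of cell number in those values was not tested. Clec3b, of fibroblasts, measured 27.3 and 27.1 FPKM in knockouts and 44.8 and 49 FPKM in wild types, and Pi16 and Islr had log2 fold changes of -0.79 and -0.72. Fibroblast genes named from development only had log2 fold changes from -0.25 (Col3a1) to 0.17 (Tcf21), and Postn, Col1a1 and Col1a2 overlapped. Smooth muscle and mural markers were higher without overlap for 7 of 9 named (26.8% of all genes tested were). The PN3 list names 7 of the 9, 6 on the higher and 1 on the lower side. Myl9, the regulatory light chain of smooth muscle, measured 883 and 929 FPKM in Celf1 -/- against 463 and 402 FPKM in Celf1 +/+ libraries, and Acta2 measured 601 and 653 FPKM in the mutant pair and 419.7 and 413 FPKM in the wild-type pair, while the pericyte channel Kcnj8 was lower, at 14 and 20.2 FPKM in knockouts and 24.9 and 25.3 FPKM in wild types. Tagln, Csrp1 and Cnn1 had log2 fold changes of 0.45, 0.47 and 0.56. Of the ventricular markers, Ryr2 and Hrc, proteins of calcium release, measured 75.1 and 73.9 FPKM against 108 and 110.1 FPKM and 82.5 and 81.3 FPKM against 118 and 122 FPKM, with Celf1 -/- first, and Myh7 overlapped. Gja3 and Hey2 had log2 fold changes of -0.46 and -0.38. Mast cell markers summed to 13.9 and 21.1 FPKM in Celf1 -/- against 21.7 and 27.4 FPKM in Celf1 +/+ hearts. The mast cell chymase Cma1 measured 2.41 and 4.11 FPKM in Celf1 -/- against 4.79 and 5.85 FPKM in Celf1 +/+ libraries. Neuronal markers went to both sides, with Gap43, of growing axons, at 6.36 and 6.84 FPKM in the mutant pair and 3.88 and 3.6 FPKM in the wild-type pair and Dbh, of noradrenaline synthesis, at 1.14 and 0.85 FPKM in knockouts and 1.67 and 1.88 FPKM in wild types. So did skeletal muscle markers, with 4 of 7 named lower and 1 higher without overlap. Ky measured 4.74 and 4.02 FPKM in Celf1 -/- against 8.15 and 9.85 FPKM in Celf1 +/+ libraries, Myl1 overlapped, and Colq, the higher marker, is given below. Of the 10 lung markers, Krt8, Krt18 and Scgb3a2 carry a name, each through the PN3 list, and all 3 were higher. Scgb3a2, a secretoglobin of airway epithelium, measured 1.52 and 7.0 FPKM in the mutant pair and 0.050 and 0.12 FPKM in the wild-type pair, so that most of its level came from 1 library, and the part of lung tissue in it was not tested. Of 8 adipocyte markers 0 carry a name, so these could not be followed.

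**Figure D5:**
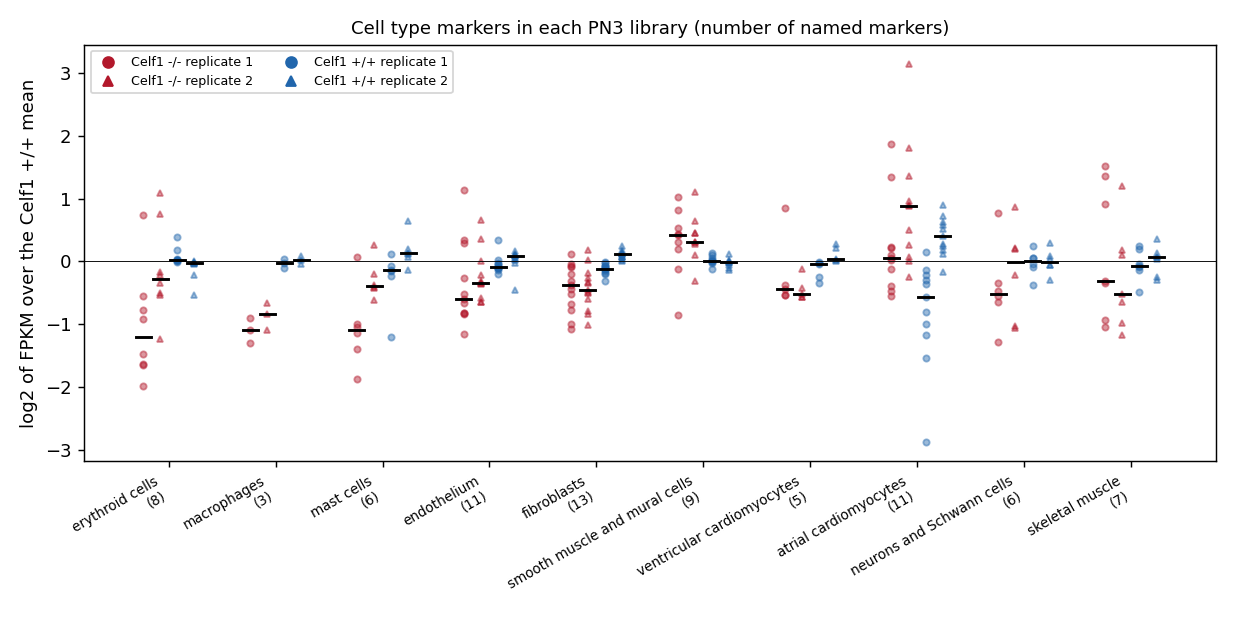
Log2 of the FPKM of each named marker over its mean in the 2 Celf1 +/+ libraries, for 10 cell types and each of the 4 libraries (red Celf1 -/-, blue Celf1 +/+, circles replicate 1, triangles replicate 2), with black lines for the median of a library. Macrophage and fibroblast medians are lower in both Celf1 -/- libraries, erythroid medians are lowest in Celf1 -/- replicate 1, and atrial markers spread most, with the lowest median in Celf1 +/+ replicate 1.

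Among named genes with at least 5 FPKM in a genotype and no overlap, the 10 largest and 10 smallest fold changes add genes not described above. On the lower side these were Cd59a, an inhibitor of complement, at 11.5 and 13.6 FPKM in knockouts and 31.1 and 37.4 FPKM in wild types, the retinoid transporter Abca4 at 1.99 and 2.61 FPKM in Celf1 -/- against 5.84 and 6.88 FPKM in Celf1 +/+ libraries, and Rtn2, a reticulon of muscle, at 16.4 and 19.3 FPKM in the mutant pair and 36 and 47.7 FPKM in the wild-type pair. The ion channel gene Hcn2 measured 1.72 and 2.62 FPKM in knockouts and 5.83 and 5.98 FPKM in wild types, and Ifi27l2a, an interferon-inducible gene, measured 3.82 and 4.49 FPKM in Celf1 -/- against 15.1 and 8.07 FPKM in Celf1 +/+ libraries. On the higher side they were Colq, which anchors acetylcholinesterase, at 8.95 and 8.0 FPKM in the mutant pair and 4.01 and 2.94 FPKM in the wild-type pair, Mid1, a microtubule-bound ubiquitin ligase, at 11.6 and 10.2 FPKM in knockouts and 4.98 and 5.57 FPKM in wild types, the zinc finger gene Zfp101 at 6.83 and 7.05 FPKM in Celf1 -/- against 3.46 and 3.33 FPKM in Celf1 +/+ libraries, and the keratin Krt80 at 6.58 and 5.03 FPKM in the mutant pair and 3.91 and 1.96 FPKM in the wild-type pair. Of these, Ifi27l2a and Krt80 varied about 2-fold between Celf1 +/+ replicates. Among the genes past FDR 0.05 were also Ifi203, of an interferon-inducible family of similar sequences, which fell with a log2 fold change of -1.02 (SE 0.0733) and an adjusted p of 0.0465, and an unnamed feature whose number follows that of Celf1. The adjusted p of Ifi203 was 0.0937 without Celf1 +/+ replicate 2, 0.0564 without Celf1 -/- replicate 1, 0.0547 with filterByExpr and 0.0523 in the bias-corrected fit. Celf1, Ivd, Cd59a, Bmf and Myl9 all lie on chromosome 2, which was seen after their values. The share of chromosome 2 among all genes tested was not counted, and a link with the Celf1 locus was not tested.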

How the data were processed

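Polyadenylated RNA of mouse ventricles was sequenced in paired-end reads of 100 cycles. The authors aligned the reads to mm9 and estimated abundance per gene with RSEM. The submitters' processing notes name TopHat2 2.02 and RSEM 1.2.4. The deposited values are expected counts and FPKM per gene, numbered without names. Names came from exact matches of the FPKM to the study's supplementary expression table, which holds only genes it listed as differing, and whose development part was held here only in part.

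Expected counts were rounded to whole numbers. The 12502 genes at 1 FPKM or more in each library of at least 1 genotype were tested with edgeR 4.0.16 (glmQLFit and glmQLFTest, TMM factors of 0.978 to 1.02, 2 against 2 libraries) with Benjamini-Hochberg adjustment over all of them. The alternatives were the exact test, DESeq2 1.42.0, other scalings and filters, a robust fit, the replicate block, all 5 libraries and leaving out each library. Besides the fit with all 5 libraries, the PN38 library served only to name genes. Names from the development list were matched on its FPKM and those of the Celf1 +/+ PN3 libraries. The run used R 4.3.3, Python 3.11.15, pandas 2.3.3 and matplotlib 3.10.9.

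Tested on simulated data for the 12502 genes, with 100 genes changed 1.5-fold and 100 changed 3-fold, the quasi-likelihood test called 61 and 100 of them and 6 unchanged genes, the exact test 63 and 100 and 7, and DESeq2 65 and 99 and 18. On the measured counts the tests lay far apart at FDR 0.05, with 6 lower and 1 higher, 425 and 382, and 720 and 736. In the quasi-likelihood test of the measured counts, Hbb-b1 (log2 fold change -1.54) and Slc16a3 (1.40) had adjusted p of 0.0907 and 0.0699. Vtn (-1.69) and Nppa (1.86) both had 0.0465. How closely the simulated spread between replicates matches the measured one was not tested. The share of 1.5-fold or 3-fold changes that each test finds in the measured libraries was not tested either. The libraries held 122715683 to 139769909 expected counts, and replicates differed by a median of 0.111 (Celf1 -/-) and 0.0989 (Celf1 +/+) on the log2 scale of FPKM.

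The gene families, their members and the marker lists were chosen with earlier results of these data known. Genes were named where they passed FDR 0.05, where they had 1 of the 10 largest or smallest log2 fold changes among named genes of at least 5 FPKM without overlap, or from the lists: all members of lists of up to 8 and the 4 at each end of longer ones, of which some near 0 or among the markers are given only in counts. Other members were chosen as examples after their values were seen. Some genes, counted in the totals, are not reported here by name.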

Additional observations from a re-analysis of the deposited data

How the results depend on the processing

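At FDR 0.05 the main test gave 6 lower and 1 higher genes. Counts depended on the test far more than on the scaling: the exact test gave 425 lower and 382 higher genes, DESeq2 720 and 736, and both RLE and upper quartile scaling 6 and 1. The robust fit gave 14 and 9, all 5 libraries 17 and 9, filterByExpr 2 and 0, the filter of 1 count 9 and 7, and a bias-corrected quasi-likelihood fit, chosen after seeing the data, 4 and 0. At FDR 0.1 the main test gave 139 and 82. Leaving out 1 library gave 2 to 41 lower and 1 to 52 higher genes (both highest without Celf1 +/+ replicate 1, both lowest without Celf1 +/+ replicate 2), where the lone sample of a genotype is assumed to vary like the pair of the other. The cause of these differences was not tested.

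With the replicate number as a block the counts were 4 and 2. The deviations of replicate 1 of both genotypes had a correlation of 0.228 across genes. The paper reports that its molecular work relied on littermates, to limit variation from the mixed strain. It does not give the litter of any library, and the labels do not say that numbers pair the animals. Whether equal numbers mark littermates was not tested. With the replicate block the adjusted p was 0.0589 for Ivd, Vtn and Ifi203 and 0.0446 for Nppa. The planned fit with legacy settings is the main fit.

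Of 675 values of list medians under alternatives, 645 lay within 1 SD of the main median, and the other 30 came from leaving out a library. This SD, over library pairs, is wide where replicates differ, so values within it can still depend on a library. Within 1 SD, medians over libraries left out ran from 0.04 to 1.44 for atrial markers (SD 0.945). They ran from -1.16 to -0.29 for erythroid markers and 0.64 to 1.72 for lung markers. They changed sign for collagens (-0.14 to 0.02), insulin and IGF signalling (-0.15 to 0.02) and imprinted genes (-0.07 to 0.15). The lists that follow held a value beyond 1 SD. Over libraries left out, the median ran from 0.33 to 0.69 for sterol synthesis, 0.06 to 0.31 for cholesterol trafficking, 0.26 to 0.43 for serine and folate, -0.55 to -0.45 for amino acid breakdown, -0.45 to -0.33 for fatty acid use, 0.37 to 0.45 for fatty acid synthesis, 0.36 to 0.44 for redox genes, 0.33 to 0.43 for annexins, 0.36 to 0.57 for Bex and Tceal genes, 0.25 to 0.42 for nuclear transport, 0.30 to 0.61 for growth factors, -0.33 to -0.18 for proteoglycans, -0.85 to -0.48 for carbonic anhydrases, -0.35 to -0.24 for aldehyde dehydrogenases, -0.13 to -0.05 for axon guidance, 0.29 to 0.60 for chaperones, 0.40 to 0.48 for smooth muscle, -1.04 to -0.82 for macrophages and -0.52 to -0.27 for skeletal muscle.

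Of the 310 named genes, 20 changed direction when a library was left out, and no other alternative turned a direction. Their log2 fold changes over libraries left out ran from -0.32 to 0.02 (Btg1), -0.07 to 0.02 (Cirbp), -0.19 to 0.02 (Col1a2), -0.02 to 0.49 (Eln), -0.04 to 0.07 (Etv1), -0.01 to 0.27 (Fbln5), -0.01 to 0.13 (Fkbp10), -0.13 to 0.15 (H19), -0.48 to 0.03 (Hif3a), -0.09 to 0.23 (Hspa2), -0.25 to 0.41 (Igfbp2), -0.28 to 0.02 (Irs2), -0.13 to 0.89 (Myh7), -0.51 to 0.06 (Nr2f1), -0.43 to 0 (Nr2f2), -0.07 to 0.05 (Postn), -0.02 to 0.34 (Shmt1), -0.04 to 0.18 (Spry2), -0.02 to 0.28 (Srebf2) and -0.15 to 0.18 (Stc1). With 2 libraries a genotype, and names only for genes that the study listed, a family without a described change may still have changed.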
